A study of Mus musculus with 28 samples.

Results

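The genes described here encode secreted chemokines, interleukins and a few related cytokines. They are the protein-coding rows of both expression tables whose symbol is Ccl, Cxcl or Cx3cl with a number, Il with a number and at most 1 letter, or Lif, Csf1, Csf2, Csf3, Tnf or Tslp. This gave 75 genes of the 45706 listed, of which 71 encode ligands, 32 of them chemokines. The other 4 (Il7r, Il9r, Il21r and Il23r) encode receptors whose symbols have the same form, and none of these reached a mean of 1 TPM in a group. Cxcl11 matched by symbol but is not annotated as protein-coding and was left out. RNA was sequenced from mIMCD-3, an epithelial line of mouse kidney derived from collecting duct cells of the inner medulla. All cells were wild-type and received no agent. Polyclonal WT is the line as it is kept in culture, monoclonal WT5 was grown from 1 sorted cell of it, and subclones 1 to 5 were each grown from 1 sorted cell of WT5, so that each of the latter 6 lines is a single clone. There were 4 libraries a line, 28 in all. Cells were kept in 10% serum and 10% CO2, and RNA was taken 4 days after confluency. The polyclonal libraries were 50 bp single-end reads and those of WT5 150 bp paired-end reads made at another time, so that sequencing and cell line cannot be told apart between them. The subclones were deposited in a separate table, and whatever all of them share against WT5 cannot be told apart from a table difference. The study calls the libraries of a line biological replicates in one place and technical ones in another. The p-values therefore measure the spread between these libraries, which may be technical.

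Values are TPM, a measure of transcript abundance that corrects for transcript length and sets each library to the same total. The number of reads behind a value is unknown, and no counting error can be given. Between 16270 and 17004 genes were above 0 in the libraries of WT5 and the subclones, and between 18681 and 19272 in the polyclonal libraries. Epithelial markers were present throughout, with all 9 listed at a mean of 1 TPM or more in every line. Aqp2, the vasopressin-regulated water channel that defines principal cells, was at 0 in all 28 libraries, and 4 of 9 principal cell markers reached 1 TPM in polyclonal cells against 1 of 9 in each of the other lines. Of 10 leukocyte markers, 2 reached 1 TPM in every line, namely Csf1r and Cd68. The general leukocyte marker Ptprc had means of 0.03 to 0.138 TPM, and Adgre1, Lyz2, Cd3e and Tyrobp were at 0 in all libraries. The summed level of the leukocyte list was 12.6 to 14.3 TPM in the polyclonal libraries and 28.6 to 55.9 TPM in those of WT5 and the subclones, most of it Csf1r. Fibroblast and endothelial lists summed to at most 2.15 and 0.3 TPM in any library.

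Chemokines are small secreted proteins that draw leukocytes along a gradient by binding G protein-coupled receptors. They are grouped by the spacing of their first cysteines into CC, CXC and CX3C types. Epithelial cells, those of the kidney tubule included, release chemokines and cytokines after injury or infection, and many of these genes are switched on by the transcription factor NF-kB. Interleukins and the related factors Lif, Csf1, Tnf and Tslp signal through cytokine receptors, many of them by JAK kinases and STAT factors.

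Promoter sequence was given for 11 of the 19 genes that reached 1 TPM. The NF-kB consensus, a motif of 10 letters searched on both strands of the 250 bases before the start, had a match in 5 of these 11 genes (Cxcl1, Cxcl2, Cxcl10, Ccl20 and Csf1), against 4.46% of the 27025 genes with a promoter. The AP-1 consensus, 7 letters long and likewise searched on both strands, had a match in Cxcl10 and Lif, against 5.16% of genes. The 250 bases before the start are printed for 4 of the genes with an NF-kB match. Of these, Cxcl1, Cxcl2 and Ccl20 were higher by 2-fold or more in subclone 4 than in WT5, and Cxcl10 in 3 subclones. Ccl28 also passed the 2-fold rule, in subclones 2 to 5, and is not printed, as its promoter had 0 matches to either motif. The printed sequences are from RefSeq (GRCm38.p6), run 5′ to 3′ on the strand of the gene, and have matches to the NF-kB motif, and in Cxcl10 also to AP-1, in capitals. The positions are chr5:90890995-90891244 (plus strand) for Cxcl1, chr5:90903649-90903898 (plus) for Cxcl2, chr1:83116516-83116765 (plus) for Ccl20 and chr5:92348890-92349139 (minus) for Cxcl10.
Cxcl1: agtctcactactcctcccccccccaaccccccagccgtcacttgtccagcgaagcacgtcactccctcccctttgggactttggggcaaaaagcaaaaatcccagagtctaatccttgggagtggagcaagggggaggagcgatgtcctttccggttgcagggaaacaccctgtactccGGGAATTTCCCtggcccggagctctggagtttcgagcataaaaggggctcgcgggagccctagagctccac
Cxcl2: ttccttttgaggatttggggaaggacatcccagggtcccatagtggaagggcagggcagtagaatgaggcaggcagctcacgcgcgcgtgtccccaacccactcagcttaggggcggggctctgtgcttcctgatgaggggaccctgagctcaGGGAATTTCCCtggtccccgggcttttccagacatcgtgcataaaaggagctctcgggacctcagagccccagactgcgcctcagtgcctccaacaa
Ccl20: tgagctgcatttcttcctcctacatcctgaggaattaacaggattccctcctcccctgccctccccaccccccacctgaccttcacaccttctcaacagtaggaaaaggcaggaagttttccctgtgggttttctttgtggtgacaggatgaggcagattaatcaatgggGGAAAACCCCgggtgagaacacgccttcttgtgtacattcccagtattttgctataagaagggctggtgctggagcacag
Cxcl10: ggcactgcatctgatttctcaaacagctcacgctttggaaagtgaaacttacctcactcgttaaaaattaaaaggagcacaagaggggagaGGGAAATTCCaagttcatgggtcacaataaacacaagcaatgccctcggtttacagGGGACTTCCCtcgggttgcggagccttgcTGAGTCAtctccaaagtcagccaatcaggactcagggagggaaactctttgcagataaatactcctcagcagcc
In Cxcl1 the capitals begin 71 bases before the start and in Cxcl2 97 bases before it. In both genes the capitals hold a pair of matches that overlap, 1 read on each strand. The match of Ccl20 begins 80 bases before the start, and Cxcl10 has matches that begin 159 and 103 bases before it, followed by the AP-1 match at 74 bases. A match is a description of these letters and does not show that a factor bound there.

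Of the 75 genes, 22 were listed at 0 in all 28 libraries, among them Il1b, Il13, Il17a, Il22, Ccl11, Cxcl9 and Cxcl12. Another 53 were above 0 in at least 1 library and 20 in every library. A mean of 1 TPM or more in at least 1 line was reached by 19 genes, and 10 TPM or more by 12. The number at 1 TPM or more was 13 in polyclonal cells, 15 in WT5, and 15, 13, 16, 17 and 16 in subclones 1 to 5. Just inside this limit were Ccl28, with its highest mean of 1.25 TPM in polyclonal cells, and Tslp, with 1.43 TPM in subclone 3. Just outside were Il11 with 0.94 TPM in WT5 and Tnf with 0.938 TPM in polyclonal cells.

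The highest level of any of these genes was that of Cxcl1, a chemokine that attracts neutrophils through the receptor Cxcr2, with 117 TPM in subclone 4. Csf1, the growth factor of macrophages, had means between 37.1 TPM in polyclonal cells and 61.7 TPM in subclone 4. Cxcl16, a chemokine made as a transmembrane protein, lay between 19.0 and 36.8 TPM. Cx3cl1 (fractalkine), the other membrane-bound chemokine, lay between 10.7 and 20.5 TPM. These 4 genes were thus above 10 TPM in every line, as was Cxcl10, which lay between 12.4 and 31.6 TPM.

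**Figure D1:**
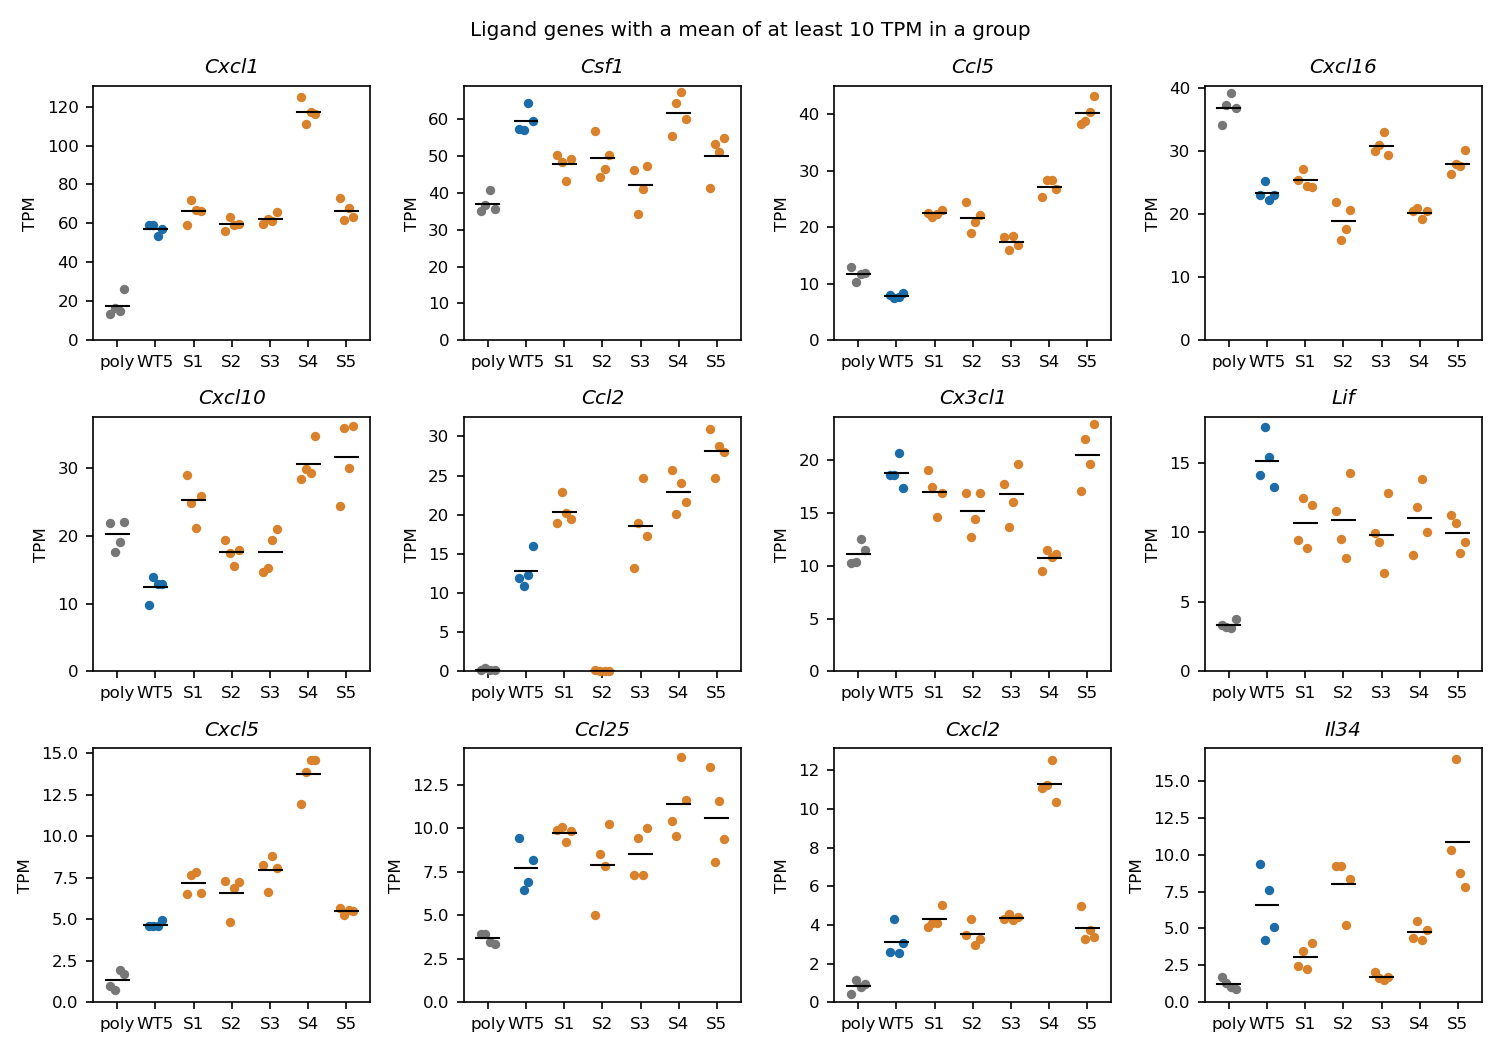
TPM (linear axes from 0) of the 12 genes with a mean of at least 10 TPM in at least 1 line, for polyclonal WT (poly), WT5 and subclones 1 to 5 (S1 to S5), with 1 point per library and a line at the mean of 4. Ccl2 is near 0 in polyclonal cells and subclone 2 and at 10.9 TPM or more in the libraries of the other lines, and Cxcl1, Cxcl2 and Cxcl5 are highest in subclone 4.

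WT5 and polyclonal WT cells were compared to ask how the chemokine and cytokine genes of a single clone differ from those of its mixed parental line. Ccl2 was higher in WT5, as were the neutrophil chemokines Cxcl1, Cxcl2 and Cxcl5, the chemokines Ccl20 and Ccl25, and the cytokines Il34 and Lif, by 2.10-fold (Ccl25) to 55.1-fold (Ccl2) in mean TPM. Il17d and Ccl28 were lower in WT5. Of the 22 genes above 0 in all 8 libraries, 11 passed an adjusted p below 0.01 and a 2-fold difference in limma on log2(TPM), 8 of them higher and 3 lower. Over all 13723 genes tested this share was 25.5%, with 17% higher and 8.55% lower. The median log2 difference was 0.72 for the 22 genes and 0.24 for all genes. Relative to the median of all genes, again 11 passed (23.2% of all genes), 7 higher and 4 lower, against 11.3% and 12% of all genes, as Ccl25 dropped out and Cxcl10, which was lower, came in. By the stricter rule of the study, which needs a difference above 1 between z-scores of log2(TPM) and here equals 8.56-fold, Ccl2 was called and no other of the 22, against 5.43% of all genes. Since the RNA is of whole cultures, fewer cells that express a gene and less RNA per cell cannot be told apart.

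Ccl2, which recruits monocytes through Ccr2, had 0.12, 0.40, 0.22 and 0.19 TPM in the polyclonal libraries and 11.98, 10.94, 12.27 and 16.03 TPM in those of WT5. Every WT5 library was thus far above every polyclonal one, and the z-score difference was 1.83 ± 0.12 (SE, limma adjusted p = 3.81e-06). On the log2 scale the difference was 5.90 ± 0.34 (SE, adjusted p = 2.04e-06). The gene lies on chr11:82035571-82037453 (GRCm38), and no stretch of 50 bases of its longest transcript occurs in a transcript of another gene.

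Cxcl1 had 13.57, 16.38, 15.33 and 26.35 TPM in polyclonal cells and 59.16, 58.99, 53.74 and 56.99 TPM in WT5. The groups do not overlap, and the log2 difference was 1.72 ± 0.19 (SE, adjusted p = 7.99e-05). Cxcl2 and Cxcl5 encode further ligands of the same receptor. Cxcl2 had 0.45, 1.15, 0.80 and 0.97 TPM in polyclonal cells against 2.61, 4.29, 2.56 and 3.05 TPM in WT5, a log2 difference of 1.94 ± 0.31. Cxcl5 had 0.96, 0.77, 1.94 and 1.70 TPM against 4.59, 4.58, 4.58 and 4.96 TPM, a log2 difference of 1.90 ± 0.29. All 3 genes were thus higher in every WT5 library than in any polyclonal one, by 3.20-fold (Cxcl1) to 3.71-fold (Cxcl2) in mean TPM. Of the sequence of Cxcl2, 5.35% of the stretches of 50 bases also occur in Cxcl3, which had means of at most 0.193 TPM.

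Ccl20, which attracts dendritic cells and Ccr6-bearing lymphocytes, had 0.33, 0.35, 0.29 and 0.41 TPM in polyclonal cells and 2.92, 2.63, 2.44 and 2.08 TPM in WT5. Its log2 difference of 2.87 ± 0.13 (SE, adjusted p = 7.09e-07) was the second largest among the 22 genes. Ccl25, known from the thymus and the small intestine, had 3.95, 3.94, 3.49 and 3.33 TPM against 9.43, 6.46, 6.89 and 8.16 TPM. This difference of 1.06 ± 0.13 on the log2 scale lay close to the 2-fold limit and was under it without WT5 replicate 1.

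Lif, a cytokine that signals through Lifr and gp130 (Il6st), had 3.32, 3.20, 3.14 and 3.77 TPM in polyclonal cells and 14.16, 17.58, 15.42 and 13.3 TPM in WT5. It was 4.5-fold higher in WT5, with a log2 difference of 2.17 ± 0.10 (SE, adjusted p = 6.46e-07). Il34, the second ligand of the macrophage receptor Csf1r, had 1.74, 1.3, 1.07 and 0.88 TPM against 9.35, 4.21, 7.58 and 5.10 TPM. The WT5 libraries differed among themselves by more than for the genes above, and all were higher than the polyclonal ones, with a log2 difference of 2.37 ± 0.30. Csf1 itself was 1.6-fold higher in WT5, with a log2 difference of 0.68 ± 0.07 (SE, adjusted p = 3.32e-05), which is under the 2-fold limit. Cx3cl1 was likewise higher by less than that (0.76 ± 0.08, adjusted p = 7.5e-05), with 10.25 to 12.5 TPM in polyclonal cells and 17.35 to 20.7 TPM in WT5. Tslp (0.93 ± 0.34, adjusted p = 0.0363) and Il7 (-0.29 ± 0.25, adjusted p = 0.32) had libraries that overlapped between the groups.

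Il24, an interleukin of the IL-20 family, was listed at 0 in all 4 polyclonal libraries and at 2.01, 1.54, 2.21 and 1.29 TPM in WT5. Il4, a cytokine of type 2 immune responses that is mostly made by T cells, showed the opposite, with 5.11, 4.76, 3.18 and 3.88 TPM in polyclonal cells and 0 in all WT5 libraries. Genes with a 0 are not in the fit above. In the fit with a pseudocount of 0.1 TPM, Il24 was higher in WT5 (z-score difference 1.17 ± 0.04, adjusted p = 1.96e-07) and Il4 lower (-1.29 ± 0.04, adjusted p = 1.29e-07). With Ccl2, 3 of 50 genes passed the z-score rule in that fit, against 4.57% of all genes. With a pseudocount of 1 TPM neither Il24 nor Il4 passed it. In the same pseudocount fit of 0.1, 16 of 50 passed the 2-fold rule, against 24.5% of all genes, with 10 higher and 6 lower (11.2% and 13.3% of all genes). Relative to the median of all genes in that fit, 20 passed (37.5%), with 15 higher (27.6%) and 5 lower (9.91%). These 15 include Csf1 and Cx3cl1, which did not pass the 2-fold rule in that fit without this scaling. A pass relative to the median thus need not be a 2-fold rise in TPM.

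Il17d, a member of the IL-17 family, had 6.71, 6.55, 8.58 and 6.63 TPM in polyclonal cells and 0.87, 1.28, 2.10 and 1.39 TPM in WT5. It was thus 5.05-fold lower in WT5, with a log2 difference of -2.40 ± 0.25 (SE, adjusted p = 5.33e-05). Ccl28, a chemokine of mucosal epithelia, had 1.57, 1.06, 1.00 and 1.38 TPM against 0.16, 0.12, 0.24 and 0.21 TPM, a log2 difference of -2.80 ± 0.24. Il17f, which encodes another IL-17 cytokine, had means of 0.265 TPM in polyclonal cells and 0.0975 TPM in WT5, and its call as lower (-1.5 ± 0.39, adjusted p = 0.00841) was lost in 6 of 8 fits that left out 1 library.

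Ccl5, Cxcl10 and Cxcl16 were also lower in WT5, by less than 2-fold. Ccl5, which attracts T cells and monocytes, had a log2 difference of -0.57 ± 0.08, with 10.39 to 13.06 TPM in polyclonal cells and 7.52 to 8.39 TPM in WT5. Cxcl10, an interferon-inducible ligand of Cxcr3, had a log2 difference of -0.71 ± 0.12, and Cxcl16 one of -0.66 ± 0.06. The libraries of these 3 genes did not overlap between the groups. Among the 22 genes, 10 had all WT5 libraries above all polyclonal ones and 6 had all below, against 48.5% and 23.8% of all genes. Cxcl16 shares 18.3% of its exon bases with Zmynd15 on the opposite strand and Cxcl10 5.91% with Art3, and whether reads were counted by strand is not given in the sources used here.

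**Figure D2:**
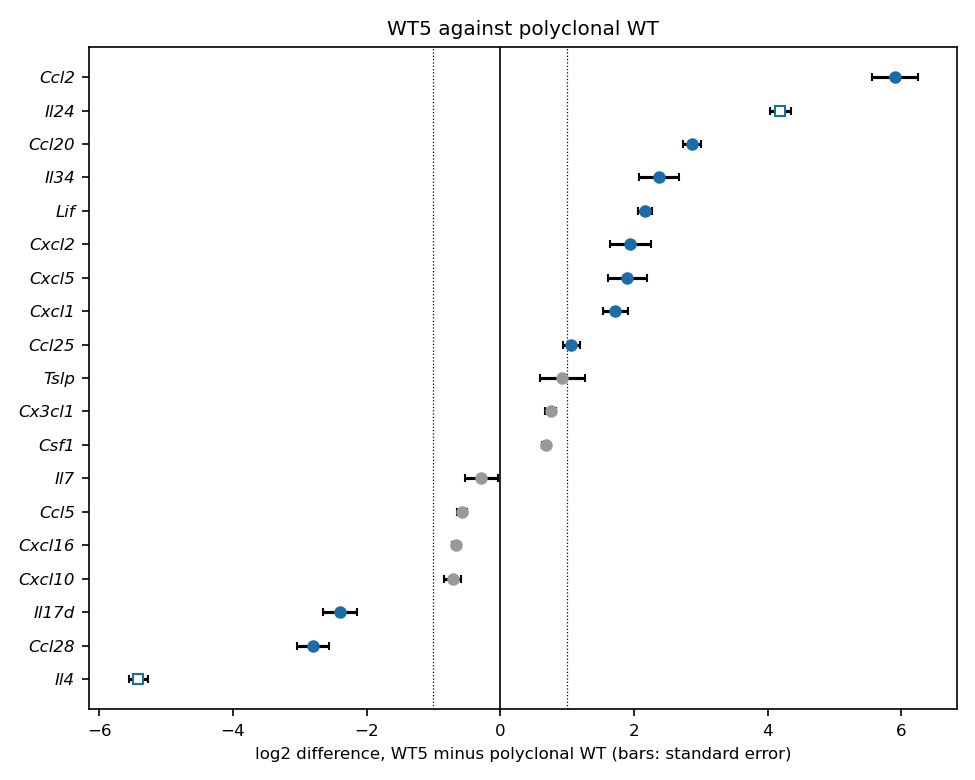
Log2 difference between WT5 and polyclonal WT for the 19 genes with a mean of at least 1 TPM in a line, with the standard error as bars and dotted lines at a 2-fold difference. Circles are log2(TPM) and open squares, for Il24 and Il4, log2(TPM + 0.1), and genes past the 2-fold rule are blue, from Ccl2 at 5.90 to Il4 at -5.41.

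Below 1 TPM, Tnf had 0.44, 1.05, 1.43 and 0.83 TPM in polyclonal cells and 0.13, 0.06, 0 and 0.04 TPM in WT5. On the log2(TPM + 0.1) scale this was a difference of -2.69 ± 0.37 (SE, adjusted p = 0.000403). Il18, an IL-1 family cytokine, had 0.30 to 0.58 TPM in polyclonal cells and was at 0 in the libraries of WT5 and all 5 subclones. Il11 had 0.24 to 0.70 TPM in polyclonal cells and 0.58 to 1.16 TPM in WT5, groups that overlap, and its difference of 1.18 ± 0.37 had an adjusted p of 0.0196.

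The subclones were compared with WT5 to ask whether clones of a clone keep its expression of these genes. Ccl5 was 2.19-fold to 5.07-fold higher in all 5 subclones than in WT5, and subclone 4 had in addition higher Cxcl1, Cxcl2, Cxcl5 and Ccl20. Ccl2 was close to absent in subclone 2 and present in the other subclones and in WT5. By the 2-fold rule 3, 2, 4, 8 and 5 of 22 genes differed in subclones 1 to 5. Over all 13860 genes tested the shares were 3.17%, 2.69%, 3.61%, 5.14% and 3.45% for subclones 1 to 5. All libraries were above those of WT5 for 4, 3, 7, 11 and 8 genes in subclones 1 to 5, against 15.9%, 14.2%, 10.5%, 18.5% and 9.96% of all genes, and below them for 4, 4, 4, 2 and 4 genes, against 26.2%, 25.3%, 26.9%, 32% and 28.5%. By the z-score rule, 0 of 22 differed in each subclone, against 0.152%, 0.144%, 0.173%, 0.202% and 0.173% of all genes. The unequal-variance test likewise called 0 in each, while 13, 10, 13, 16 and 14 of the 22 genes had an unadjusted limma p below 0.05. All 5 comparisons share the WT5 libraries, so their differences are not independent of each other.

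**Figure D3:**
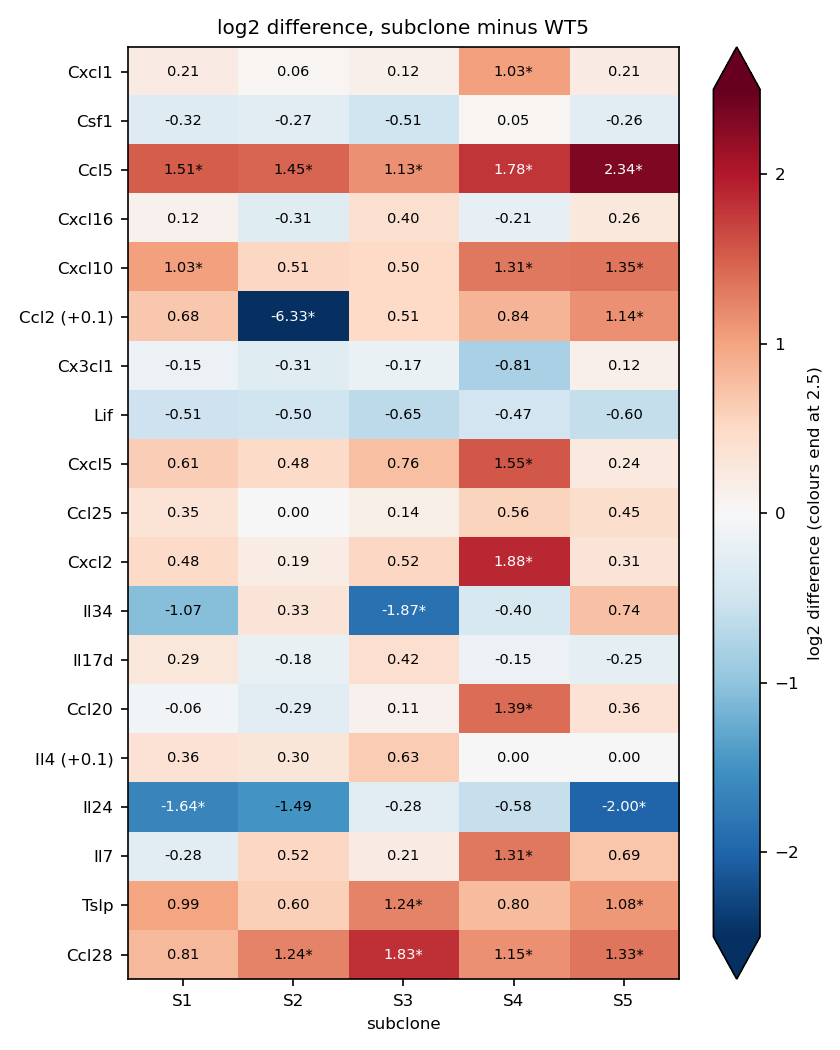
Log2 difference between each subclone (S1 to S5) and WT5 for the 19 genes with a mean of at least 1 TPM in a line, on log2(TPM) or, where marked +0.1, on log2(TPM + 0.1). Stars mark an adjusted p below 0.01 with a difference above 1, which Ccl5 has in all 5 subclones, Ccl2 has with a negative sign in subclone 2, and 8 genes have in subclone 4.

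Ccl2 had 0.12, 0.07, 0.07 and 0 TPM in subclone 2. It had 18.97, 22.96, 20.21 and 19.50 TPM in subclone 1 and 13.19, 18.89, 24.70 and 17.24 TPM in subclone 3. In subclone 4 the values were 25.71, 20.14, 24.12 and 21.60 TPM, and in subclone 5 they were 30.94, 24.67, 28.76 and 28.05 TPM. Polyclonal cells, which are in another table and were not tested against subclone 2, had 0.12 to 0.40 TPM. No library of subclone 2 came near the 10.94 TPM that is the lowest value in WT5. With a 0 in 1 library Ccl2 was not in the fit of log2(TPM). On log2(TPM + 0.1) the difference between subclone 2 and WT5 was -6.33 ± 0.26 (SE, adjusted p = 6.28e-05), a mean 197-fold lower. In that fit Ccl2 was the 1 gene of 51 past the z-score rule in subclone 2, against 0.0729% of all genes. Against the other 4 subclones, a comparison within their own table chosen after seeing the data, the difference was -7.12 ± 0.19 (SE, adjusted p = 5.05e-16), and Ccl2 was 1 of 48 genes past the 2-fold rule, against 0.213% of all genes. That comparison pools the libraries of the other subclones as a single group. Its standard error and p-value thus count libraries and not clones, and mix the spread between clones with that within them. In subclone 5 Ccl2 was 2.20-fold higher than in WT5 (1.14 ± 0.13, adjusted p = 0.00205).

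The neighbours of Ccl2 on chromosome 11 were at or near 0 in all lines. Ccl7, which starts 10.1 kb away, had a highest mean of 0.313 TPM in subclone 5 and was at 0 in subclone 2. Ccl11, Ccl12, Ccl8 and Ccl1, at 22.3 to 141.1 kb from Ccl2, were at 0 in all 28 libraries. Ccl5 lies on the same chromosome, 1490 kb from Ccl2, at chr11:83525778-83530518, and was not low in subclone 2.

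Ccl5 had 8.05, 7.52, 7.70 and 8.39 TPM in WT5 and 22.52, 21.86, 22.40 and 23.13 TPM in subclone 1. It had 24.55, 19.02, 20.92 and 22.20 TPM in subclone 2 and 18.22, 15.95, 18.38 and 16.92 TPM in subclone 3. In subclone 4 it had 25.29, 28.29, 28.41 and 26.81 TPM and in subclone 5 it had 38.22, 38.85, 40.30 and 43.19 TPM. Every subclone library was above every WT5 library and above the highest polyclonal value of 13.06 TPM. The log2 difference from WT5 ran from 1.13 ± 0.07 in subclone 3 to 2.34 ± 0.07 in subclone 5, with adjusted p from 3.03e-06 to 6.72e-05. As all subclones share this difference, the limits from the separate tables and the added sort and culture apply to it. Among the subclones themselves the highest mean was 2.31 times the lowest (log2 range 1.21, moderated F test adjusted p = 1.31e-08). Subclone 5 was 0.88 ± 0.13 above the pooled libraries of the other 4 on the log2 scale (adjusted p = 0.000182, which counts libraries and not clones), without overlap, and below the 2-fold limit.

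Cxcl10 had 9.82, 13.89, 12.94 and 12.91 TPM in WT5. It had 28.97, 24.81, 21.12 and 25.93 TPM in subclone 1, 28.36, 29.90, 29.22 and 34.66 TPM in subclone 4, and 24.43, 35.93, 30.01 and 36.20 TPM in subclone 5. These 3 subclones were past the 2-fold rule, with log2 differences of 1.03 ± 0.13, 1.31 ± 0.12 and 1.35 ± 0.16. The first call was lost without WT5 replicate 1 or subclone 1 replicate 1, and with the replicate number as a block. Subclones 2 and 3 had means of 17.6 TPM each and log2 differences of 0.51 and 0.50 that did not pass. Every library of every subclone was above those of WT5, with 14.67 TPM as the lowest. The limits from the separate tables and the added sort and culture thus apply to Cxcl10 as well. Among the subclones the difference between the highest and the lowest was 0.84 on the log2 scale, below the limit.

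Subclone 4 had the highest mean of all lines for Cxcl1, Cxcl2 and Cxcl5. Cxcl1 had 124.96, 110.93, 117.12 and 116.11 TPM there, against 56.23 to 72.97 TPM in the other 16 subclone libraries and 53.74 to 59.16 TPM in WT5. The log2 difference from WT5 was 1.03 ± 0.05 (SE, adjusted p = 8.38e-06). Cxcl2 had 11.11, 11.24, 12.55 and 10.37 TPM against 2.99 to 5.05 TPM in the other subclones, and its log2 difference from WT5 was 1.89 ± 0.16. Cxcl5 had 11.94, 13.85, 14.62 and 14.62 TPM against 4.87 to 8.79 TPM, with a log2 difference from WT5 of 1.55 ± 0.07. Ccl20, which lies on chromosome 1, had 6.40, 7.96, 5.69 and 6.40 TPM against 1.36 to 3.82 TPM, with a log2 difference from WT5 of 1.39 ± 0.13. For all 4 genes no library of another line reached those of subclone 4. The subclones other than 4 had log2 differences from WT5 between -0.29 and 0.76 for these 4 genes, and none of these passed the 2-fold rule. Ppbp, a chemokine outside the symbol rule, was not highest in subclone 4, where its mean was 18.13 TPM. It had 19.07 TPM in WT5 and 19.38 and 19.53 TPM in subclones 2 and 3, and is named after its values were seen. In subclone 5 Ppbp was lower than in WT5 by the 2-fold rule, with 8.80 TPM (log2 difference -1.145 ± 0.167, limma adjusted p = 0.00203).

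Against the other 4 subclones, Cxcl2 (1.51 ± 0.11), Ccl20 (1.37 ± 0.20), Cxcl5 (1.03 ± 0.13), Il7 (1.03 ± 0.23) and Il33 (1.74 ± 0.39) were past the 2-fold rule in subclone 4, with adjusted p from 1.89e-08 to 0.00428. These are 5 of 22 genes, against 1.15% of all genes. The libraries of the other subclones were again pooled as a single group, so the standard errors and p-values count libraries and not clones. Cxcl1 was 1.84-fold higher than in the other subclones, a log2 difference of 0.88 ± 0.06 (adjusted p = 4.17e-09) that stays under the limit. In the like comparison limma called 0 of the 22 genes in subclones 1, 2, 3 and 5, against 0.257%, 0.242%, 0.292% and 0.748% of all genes, with 5, 3, 9 and 7 at an unadjusted p below 0.05, and no other test was run. Il7, a growth factor of lymphocytes, had 1.53, 1.64, 1.79 and 1.90 TPM in subclone 4 and 0.45 to 1.36 TPM in the other subclones. Its call in subclone 4 against WT5 was lost with the replicate number as a block. Il33, an IL-1 family cytokine released on injury, had 0.52, 0.43, 0.43 and 0.48 TPM in subclone 4 and 0.05 to 0.32 TPM in the others, so that it was low everywhere. It is named here after its values were seen. Cx3cl1 went the other way in subclone 4, with 9.49, 11.48, 10.85 and 11.09 TPM against 17.35 to 20.70 TPM in WT5 and 12.72 to 23.39 TPM in the other subclones. Its log2 difference from WT5 was -0.81 ± 0.08 (adjusted p = 0.000126), under the 2-fold limit and without overlap.

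Cxcl5, Cxcl1 and Cxcl2 lie in 1 cluster on chromosome 5, where the start of Cxcl5 is at -131.9 kb and that of Cxcl2 at 12.6 kb from that of Cxcl1. Cxcl3 and Cxcl15, which lie between Cxcl5 and Cxcl1, had means of at most 0.193 and 0.0175 TPM. Cxcl3 also had its highest mean in subclone 4. Chemokine genes outside the symbol rule, such as Ppbp and Pf4, were not placed on the chromosome here, so these values do not cover every chemokine gene of the region. Pf4 had its highest mean, 0.28 TPM, in subclone 3, and 0.205 TPM in subclone 4. Cxcl10 lies 1455 kb beyond Cxcl1 on the same chromosome, and Cxcl9 beside it was at 0 in all libraries.

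**Figure D4:**
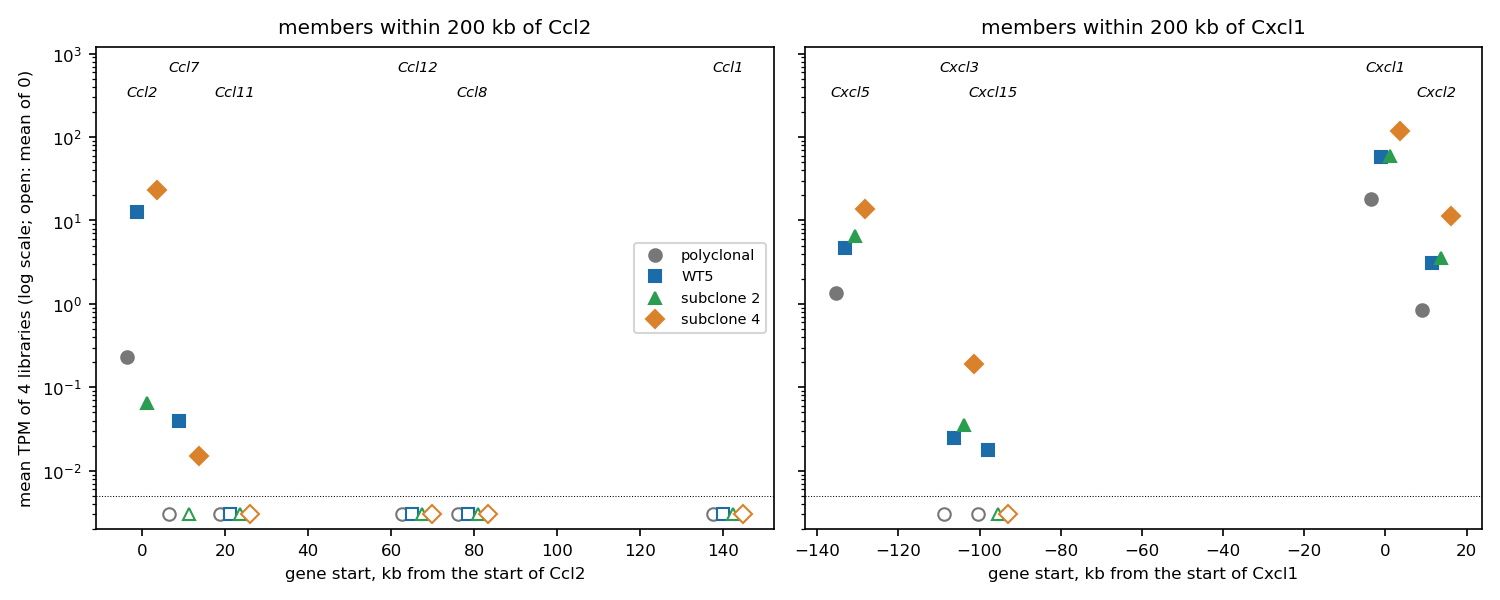
Mean TPM of 4 libraries (log scale) against the distance of each gene's start from that of Ccl2 (left) or Cxcl1 (right) in kb, for genes of the symbol rule within 200 kb, with the symbols of 4 lines set slightly apart sideways and open symbols under the dotted line for a mean of 0. Chemokine genes outside that rule are not drawn. Near Ccl2 no neighbour exceeds 0.04 TPM in these 4 lines, and on the right Cxcl5, Cxcl3, Cxcl1 and Cxcl2 have their highest value in subclone 4.

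Of the genes with a mean of 1 TPM or more in a subclone, Il34 had the highest ratio of the highest to the lowest subclone mean after Ccl2. It had 2.03, 1.62, 1.49 and 1.73 TPM in subclone 3 and 2.44, 3.48, 2.26 and 4.05 TPM in subclone 1. It had 9.24, 9.25, 5.26 and 8.37 TPM in subclone 2, 4.39, 5.52, 4.24 and 4.87 TPM in subclone 4 and 10.33, 16.43, 8.78 and 7.84 TPM in subclone 5. The libraries of subclone 3 were below those of all other subclones, and the mean of subclone 5 was 6.31 times that of subclone 3 (log2 range 2.61, moderated F test adjusted p = 8.54e-07). Against WT5 subclone 3 was lower by 1.87 ± 0.25 on the log2 scale (adjusted p = 0.00138). Subclone 1 (-1.07 ± 0.30, adjusted p = 0.0233) did not pass.

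Il24 had 0.69, 0.89, 0.52 and 0.29 TPM in subclone 1 and 0.41, 0.71, 0.24 and 0.50 TPM in subclone 5, against 1.29 to 2.21 TPM in WT5. The log2 differences of -1.64 ± 0.35 and -1.995 ± 0.33 passed the 2-fold rule, but the call was lost in 6 of 8 fits that left out 1 library for subclone 1 and in 2 of 8 for subclone 5. Both calls were also lost with the replicate number as a block. Il20, Il19 and Il10, which lie within 137.8 kb of Il24 on chromosome 1, had means of at most 0.06 TPM. Il4 stayed low in the subclones, with at most 0.17 TPM in any of the 20 libraries and 0 in all of subclones 4 and 5.

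Ccl28 was past the 2-fold rule in subclones 2 to 5, with means of 0.395 to 0.64 TPM against 0.183 TPM in WT5. The call was lost in 5 or 6 of 8 fits that left out 1 library for subclones 2, 4 and 5, and in none for subclone 3 (1.83 ± 0.25). With the replicate number as a block it was lost for subclones 3 and 4. Tslp, an epithelial cytokine of type 2 immunity, had means of 0.60 TPM in WT5 and 0.94 to 1.43 TPM in the subclones. Tslp passed in subclones 3 and 5. For each, the call was lost in 5 of 8 fits that left out 1 library, and with the replicate number as a block.

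Lif, Csf1, Ccl25, Il17d and Cxcl16 passed the 2-fold rule in no subclone. Lif had means of 9.80 to 11 TPM in the subclones against 15.1 TPM in WT5, with log2 differences of -0.47 to -0.65, and among the subclones it spanned 0.18 on the log2 scale (moderated F test adjusted p = 0.92). Csf1 spanned 0.56, Ccl25 0.56, Il17d 0.67 and Cxcl16 0.71 on that scale. Over the 20 subclone libraries alone, 8 of 22 genes passed the 2-fold rule by the moderated F test, against 5.4% of all genes. They were Ccl5, Ccl20, Cxcl2, Cxcl5, Il7, Il24, Il33 and Il34, of which Il24 was lost in 14 of 20 fits that left out 1 library and with the replicate number as a block. By the z-score rule it was 0 of 22 with limma and with an F test without moderation, against 0.613% of all genes, with 17 of 22 at an unadjusted p below 0.05. In the fit with a pseudocount of 0.1, Ccl2 was the 1 of 48 genes past the z-score rule (range 1.90, adjusted p = 1.75e-13), against 0.152% of all genes. By the 2-fold rule 11 of 48 passed in that fit, against 3.74% of all genes.

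Cxcl14, which had means of at most 0.71 TPM, is named here after its values were seen. It had 0.88, 0.70, 0.39 and 0.87 TPM in WT5 and 0.30 to 0.67 TPM in subclones 1 to 3. In subclone 4 it had 0.05, 0.02, 0.07 and 0.13 TPM and in subclone 5 it had 0.02, 0, 0 and 0.02 TPM. Subclones 4 and 5 were thus below all libraries of WT5 and the other subclones, with log2(TPM + 0.1) differences from WT5 of -2.26 ± 0.29 (adjusted p = 0.00136) and -2.83 ± 0.24 (adjusted p = 0.000716). In polyclonal cells it was at 0 in 3 libraries and at 0.05 TPM in the other.

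Of the receptors for these ligands, the chemokine receptors Ccr2, Ccr6 and Cxcr3 were at a mean of 0 in all lines, and Cxcr2, Cx3cr1, Cxcr6 and Ccr9 did not exceed 0.0475 TPM. Ccr10, the receptor of Ccl28, had means of 0.203 TPM in polyclonal cells and 0.25 to 0.575 TPM in the other lines. Receptors for several of the cytokines were present. In a list of 70 chemokine and interleukin receptors, 34 were tested between WT5 and polyclonal cells, of which 13 were higher in WT5 and 1 lower by the 2-fold rule, against 17% and 8.55% of all genes. Their median z-score difference was 0.246, against 0.00991 over all genes. By the z-score rule 4 were higher, against 2.31% of all genes. Il22ra1, a receptor subunit for Il24, had 4.48 TPM in WT5 against 0.095 TPM, Il3ra 4.08 against 0.115 TPM, and Crlf2, the receptor of Tslp, 37.7 against 1.25 TPM. The remaining one, Lifr, the receptor of Lif, had 6.5 ± 0.35 TPM (SD, n = 4) against 0.363 ± 0.095 TPM, a log2 difference of 4.20 ± 0.18 (SE, adjusted p = 4.70e-07). Csf1r, the receptor of Csf1 and Il34, rose from 10.6 to 38.8 TPM (log2 difference 1.88 ± 0.07), while Il7r, which Tslp and Il7 need, was at 0 in all libraries. Lifr and Csf1r are named after their values were seen.

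Against WT5, 0 to 3 of the 32 receptors tested passed the 2-fold rule in a subclone, all of them lower, namely Il18r1 in subclone 2 and Sigirr, Il17rc and Cntfr in subclone 4. Of all genes, 2.69% passed in either direction in subclone 2 and 5.14% in subclone 4. Over the 5 subclones the means were 22.5 to 30.2 TPM for Crlf2, 33.2 to 48.2 TPM for Csf1r and 6.3 to 7.38 TPM for Lifr, all above the polyclonal means.

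The counts of the further lists between WT5 and polyclonal cells stand against the same 17% of all genes higher and 8.55% lower by the 2-fold rule. Neither these counts nor those of the receptors were taken relative to the median log2 difference of all genes, which was 0.244. In WT5, 9 of 20 JAK, STAT and SOCS genes were higher and 0 lower by the 2-fold rule, led by Cish (2.99 ± 0.10 on the log2 scale), Socs3 (2.11 ± 0.07) and Jak3 (2.02 ± 0.05). Of these 9 genes, Stat2 (1.03), Stat5a (1.09) and Stat5b (1.13) lay close to the limit. Cish and Socs3 encode feedback inhibitors that cytokine signalling induces. Of 10 AP-1 factors 5 were higher and 0 lower, among them Batf3, which passed the z-score rule, Maff and Junb. Of 33 NF-kB pathway genes 3 were higher (Tlr5, Bcl3 and Nfkbiz) and 2 lower, and of 10 NF-kB-inducible effectors 3 were higher and 2 lower, with Vcam1 past the z-score rule (-1.02 ± 0.05). The effector Cfb, named after its values were seen, was left out of that fit for a 0. It had 2.83 TPM in polyclonal cells and 0.04 TPM in WT5. With a pseudocount of 0.1, 3 of 14 effectors were higher and 3 lower (11.2% and 13.3% of all genes). In that fit Cfb passed the z-score rule (-1.04) and Vcam1 did not (-0.623). Among 17 other cytokine ligands and antagonists, 6 were higher and 3 lower. By the z-score rule Clcf1, a ligand of the Lif family, was higher with 114.5 against 9.19 TPM, and Lta and Ltb, of the Tnf family, were lower with 1.08 against 9.63 TPM and 1.42 against 10.8 TPM. Of 7 cytokine processing genes 3 were higher, with Dpp4 and Gsdmd past the z-score rule. Of 12 genes of cytokine mRNA decay, limma called 0 in either direction, and 10 had an unadjusted p below 0.05. The median z-score differences of these lists were 0.155 (JAK, STAT and SOCS), 0.442 (AP-1), 0.057 (NF-kB pathway), -0.228 (effectors), 0.167 (other ligands), -0.0264 (processing) and -0.113 (decay).

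The counts of these lists in subclones 1 to 5 against WT5 stand against 3.17%, 2.69%, 3.61%, 5.14% and 3.45% of all genes, in either direction, by the 2-fold rule. In the subclones, 0 of the 33 NF-kB pathway genes passed the 2-fold rule against WT5 with limma, with 13 to 22 at an unadjusted p below 0.05. In subclone 4, where Cxcl1, Cxcl2 and Cxcl5 were highest, 2 of 9 NF-kB-inducible effectors were higher and 1 lower. These were complement C3 (12.96 ± 1.67 against 4.23 ± 0.42 TPM, SD, n = 4), the adhesion molecule Vcam1 (1.66 against 0.56 TPM) and Ptgs2, which was lower (5.51 against 11.5 TPM). Ptgs2 was also lower in subclones 2 and 3, with 5.55 and 5.16 TPM, and had means of 7.45 and 6.32 TPM in subclones 1 and 5, which did not pass. C3 was also higher in subclone 5 with 9.97 TPM, and Lcn2 in subclone 3 with 291 against 123 TPM. Of the 10 AP-1 factors, 1 was higher in subclones 1 and 4 each (Fos), and 1, 3, 1 and 2 were lower in subclones 2 to 5. Of 18 other ligands, Kitl, the ligand of the receptor Kit, was higher in all 5 subclones (4.18 to 12.7 TPM against 1.67 TPM), with its highest mean in subclone 4. Tnfsf18 was lower in all 5 (0.105 to 0.283 TPM against 0.678 TPM). Tnfsf18 passed the z-score rule in subclones 2 and 4. For both, the limits from the separate tables and the added sort and culture apply as they do for Ccl5. Of the JAK, STAT and SOCS, the decay and the processing genes, limma called 0 in any subclone, with 10 to 12 of 20, 5 to 9 of 12 and 4 to 6 of 6 at an unadjusted p below 0.05. Gsdmd, which encodes the pore-forming gasdermin D, is among the 5 of 11 processing genes left out of that fit for a 0. It had 1.95, 2.38, 2.51 and 2.36 TPM in WT5, 0.05, 0.07, 0.05 and 0 TPM in subclone 1, and 0.1, 0.12, 0.21 and 0.07 TPM in subclone 2. With a pseudocount of 0.1 it was the 1 of 11 processing genes past the 2-fold rule in subclone 1 (-4.09 ± 0.18, adjusted p = 5.47e-05) and in subclone 2 (-3.44 ± 0.19, adjusted p = 0.000223), against 1.71% and 1.54% of all genes, and in subclone 1 it also passed the z-score rule. In subclones 3 to 5 its libraries had 1.28 to 2.68 TPM. Among the subclones the moderated F test called 4 of 32 receptors, 5 of 9 effectors, 2 of 10 AP-1 factors, 1 of 12 decay genes and 5 of 19 other ligands by the 2-fold rule. The share of all genes in that test was 5.4%.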

How the data were processed

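The authors deposited TPM per gene, computed with STAR 2.7.3a and RSEM 1.3.1 on GRCm38 with Ensembl release 81. The 2 tables, for polyclonal WT with WT5 and for the subclones, were joined by gene identifier. Gene types and coordinates are from GENCODE M21 on GRCm38. TPM keeps no depth, so no count model was used, and precision rests on 4 libraries a group.

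Log2(TPM) of genes above 0 in all libraries compared was z-score transformed within each library and fitted in limma 3.58.1 (R 4.3.3), two-sided, with Benjamini-Hochberg adjustment over all genes tested. A call needed an adjusted p below 0.01 and a z-score difference above 1, or by the 2-fold rule a log2 difference above 1 without z-scores. Genes with a 0 were fitted as log2(TPM + 0.1), and fold changes on this scale understate the change of low genes. Subclones were compared by a moderated F test. Each subclone was also compared in limma with the pooled libraries of the other 4, without a term for the clone. The limma and F tests recovered planted changes in simulated data by the z-score rule, with changes far above the 2-fold limit. The 2-fold rule was not tried on simulated data.

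The genes, lists and tests were chosen with earlier results of these data known. Named were genes with a mean of 1 TPM or more in a line, those just under it and, from each other list and comparison, at most 3 called genes with the largest z-score difference. Il17f and Il18 are outside these rules and are named after their values were seen. The comparison with the other 4 subclones, the scaling to the median of all genes, the checks of the 2-fold rule, and the other lists with a pseudocount of 0.1 were added after the data had been seen. Promoters are from RefSeq. Protein sequences were not used here. Alternatives were pseudocounts, filters, thresholds, the unequal-variance test, a replicate block, 1 fit of 24 libraries and each library left out.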

Additional observations from a re-analysis of the deposited data

Results flagged for a closer look

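Within 129 groups of 4 libraries, 6 values stood apart from the other 3 libraries by more than Dixon's critical value, and chance flags about 1 group in 20. Cxcl5 was 4.96 TPM in WT5 replicate 4 against 4.58 to 4.59 TPM. Il17d was 8.58 TPM in polyclonal replicate 3 against 6.55 to 6.71 TPM. Il7 was 0.41 TPM in WT5 replicate 4 against 0.80 to 0.85 TPM, and 1.09 TPM in subclone 3 replicate 1 against 0.69 to 0.74 TPM. Il4 was 0.17 TPM in subclone 1 replicate 1 and 0.13 TPM in subclone 2 replicate 1, with 0 in the other 3 libraries of each.

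The level of Ccl2 differed between subclones. The z-score range of 1.90 (1.899) between the highest and the lowest subclone passed the moderated F test in the fit with a pseudocount of 0.1 (adjusted p = 1.75e-13), with all 4 libraries of subclone 2 below the 16 others.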

How the results depend on the processing

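By the z-score rule 1 gene was called between WT5 and polyclonal cells, 0 over the 5 subclones against WT5 and 0 among the subclones. In the same order the counts were 16, 29 and 12 without a size requirement (65.5%, 19.5% to 37.3% in a subclone, and 24.6% of all genes), 3, 1 and 1 with a mean TPM of at least 1 (7.7%, 0.235% to 0.41%, and 0.742%) and likewise with a pseudocount of 0.1 and genes above 0 in any library, 11, 22 and 8 by the 2-fold rule, and 11, 22 and 9 by it relative to the median of all genes. Leaving out 1 library gave 1 to 3, 0 to 1 and 0 to 1 calls, the higher ones without polyclonal replicate 2 or 3 or WT5 replicate 3 between WT5 and polyclonal cells, without WT5 replicate 3 or subclone 2 replicate 4 against WT5, and without subclone 2 replicate 4 among the subclones. By the 2-fold rule it gave 10 to 11 calls (of 11) between WT5 and polyclonal cells, and 1 to 3, 1 to 2, 3 to 4, 7 to 9 and 3 to 5 in subclones 1 to 5, and 7 to 10 among them. The lowest counts came without WT5 replicate 1 or subclone 1 replicate 1 in subclone 1, without WT5 replicates 1, 2 or 4 or subclone 2 replicates 1 or 3 in subclone 2, and without WT5 replicates 1, 3 or 4 or subclone 5 replicates 2 or 3 in subclone 5.

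Replicate numbers gave no sign of pairing libraries. Deviations of libraries with the same number correlated at -0.0186 to 0.00633 between WT5 and polyclonal cells, at -0.0514 to 0.0812 between WT5 and the subclones, and at -0.328 to 0.153 among the subclones. In the same order, libraries with different numbers correlated at -0.0323 to 0.0364, -0.116 to 0.092 and -0.233 to 0.335. With the replicate block the z-score counts were again 1, 0 and 0, and the 2-fold counts were 12, and 1, 2, 2, 6 and 3 in subclones 1 to 5, and 7 among them.

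Over 2545 values of 133 results for single genes, 2384 kept direction and side of the threshold, 144 newly passed it, 2 lost it (Il4 at -0.863 and Il24 at 0.584 in z-score between WT5 and polyclonal cells with a pseudocount of 1), and 15 changed sign, none of them called. With 1 library left out, the z-score differences from WT5 whose sign changed ran from -0.03718 to 0.07796 for Ccl25 in subclone 2, -0.06204 to 0.01766 for Ccl20 in subclone 1, -0.03013 to 0.1061 for Ccl20 in subclone 3, -0.0069 to 0.1178 and -0.009886 to 0.09221 for Il4 in subclones 1 and 2, and -0.05299 to 0.07527 for Il7 in subclone 3. The others were Il4 in subclone 5 relative to the median of all genes (0.05761 on the log2 scale) and Il7 between WT5 and polyclonal cells with a pseudocount of 0.1 (0.02069). The causes were not tested. TPM gives no depth, so levels near 0.01 TPM, the lowest value above 0, have no counting error here.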
